A study of Homo sapiens with 12 samples.

Results

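The response of MDA-MB-231 cells to 0.5 μM Paclitaxel, the highest dose examined, was described from the RNA of 4 samples, 2 treated and 2 untreated, out of 12 samples in the series. All 4 were taken on day 4, and they were chosen by their labels. MDA-MB-231 is a triple negative breast cancer line, and the cells carried a nuclear GFP introduced through a histone and grew in Matrigel, a gel of basement membrane proteins. By the labels, Paclitaxel was added on day 2 to the treated samples and nothing to the untreated ones, whose genotype is otherwise the same (WT). The study's methods for the imaged cultures, which they say were repeated for the RNA, put the addition later than these samples were taken, so the length of exposure rests on the labels alone. The other samples were untreated on day 2 or treated with 0.0005, 0.005 or 0.05 μM, 2 each. The study's methods call the samples of a condition biological replicates of a single cell line, so the spread covers cultures of that line and not different tumours. The gel was broken down with collagenase and dispase before lysis in every sample. The treated samples held 65352340 and 51527342 counted reads and the untreated samples 61914740 and 53851006.

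Paclitaxel binds the tubulin of microtubules and stabilises them, which disturbs the mitotic spindle and holds cells in mitosis, and it also changes transport and signalling along microtubules in cells that are not dividing. MDA-MB-231 is a mesenchymal-like line that makes much vimentin and CD44 and lacks the oestrogen and progesterone receptors. The labelled cell type was checked against such markers, in CPM (a gene's counts scaled to the library total). VIM lay at 1113 and 1088 CPM untreated and at 1039 and 840.4 CPM at 0.5 μM, and CD44 at 249.8 to 282.1 CPM. The receptor genes ESR1 (at most 0.409 CPM) and PGR (at most 0.0153 CPM) and the junction gene CDH1 (at most 0.153 CPM) were close to 0. FOXA1 (6.65 to 8.95 CPM), ERBB3 (5.03 to 9.69 CPM) and EPCAM (4.31 to 5.53 CPM) are on the list of genes expected to be low or absent, and were present at these levels in all 4 samples.

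Against the untreated samples of day 4, 1596 of 25249 genes tested (6.32%) changed at 0.5 μM. Of these, 1101 were higher (4.36%) and 495 lower (1.96%), at an adjusted p under 0.05 (Benjamini-Hochberg) in the quasi-likelihood test of edgeR, the source of every adjusted p in the text. The split was 1237 higher and 1080 lower by DESeq2 and 1283 and 1295 in a fit on the 4 samples alone. Of the 1596, 330 have no gene symbol in the tables used and are not described. The rises and falls lay at different levels of expression. Among the 9456 genes with a mean under 1 CPM, 652 rose and 14 fell, whereas among the 4432 genes with a mean of at least 50 CPM, 35 rose and 138 fell. Changes above 2-fold numbered 890 rises and 84 falls, or 246 and 70 at a mean of at least 1 CPM. The treated and untreated values did not overlap in any of the 1596 genes, nor in 59.0% of all genes tested. For 1 gene alone, permuting 2 and 2 samples exactly gives p = 0.333 at the least, so the calls rest on the spread shared between genes and between the 6 conditions of the series.

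**Figure D1:**
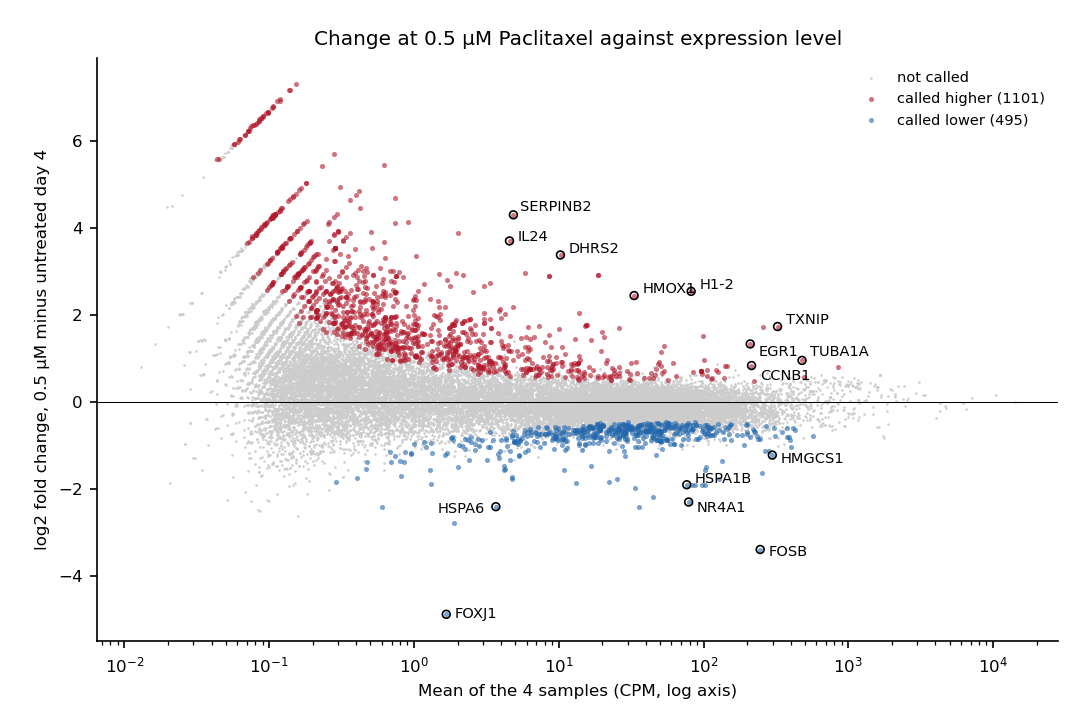
Each point is a gene tested. The horizontal axis is the mean of the 4 samples in CPM (log axis) and the vertical axis the log2 fold change of 0.5 μM against untreated day 4. Red points (1101) rose and blue points (495) fell, grey points were not called, and circled genes are described in the text. The rises spread to the left, at low expression, and the falls lie mostly at higher expression.

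How many genes passed depended on single libraries. Each fit without 1 of the 4 samples called fewer genes over all. A call lost in such a fit is therefore not by itself a trait of a gene or list. Without replicate 1 or 2 of the untreated day 4 samples 129 and 569 genes were called, and without replicate 1 or 2 at 0.5 μM 480 and 259. Libraries outside the comparison enter the shared estimate of the spread. The count was 4955 and 5046 without replicate 1 or 2 of untreated day 2, 949 and 948 without replicate 1 or 2 at 0.0005 μM, and 845 and 841 at 0.005 μM. The genes named here are the largest changes among those called, 62 in all, and 38 of them were called whichever of the 4 samples was left out. The low-level rises came with a difference between the libraries: identifiers with at least 1 count numbered 36725 and 37587 at 0.5 μM and 32910 and 33824 untreated, and olfactory receptor genes, a family known from the nose, summed to 4.85 and 6.56 CPM against 3.13 and 4.18 CPM. The part of these differences in the rises under 1 CPM was not tested, and the genes described have a mean of at least 1 CPM unless their values show otherwise.

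Among protein-coding genes with a mean of at least 1 CPM, the largest rises were led by SERPINB2, FBXW10, IL24, DHRS2 and CPNE7, which rose from 10.3-fold to 19.9-fold. Of the 20 largest, 11 lay under 1 CPM in both untreated samples. Among the 20 largest falls, FOXJ1, FOSB, CFAP210, HSPA6 and the 3 NR4A genes led, and 14 of the 20 lay above 10 CPM in both untreated samples. CPM values from here on are scaled by TMM, and errors of log2 fold changes are standard errors (SE). Overlaps with other genes are given below for some genes only. NEDD9, RAB17, MMP1, TUBB2A, NR4A1, HMGCS1, MYADM, KLF4 and ENPP1, among others, also overlap a gene on the other strand. SERPINB2, C3, C1S, ABCC9, HSPA1B and SIK1 overlap a gene on the same strand.

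**Figure D2:**
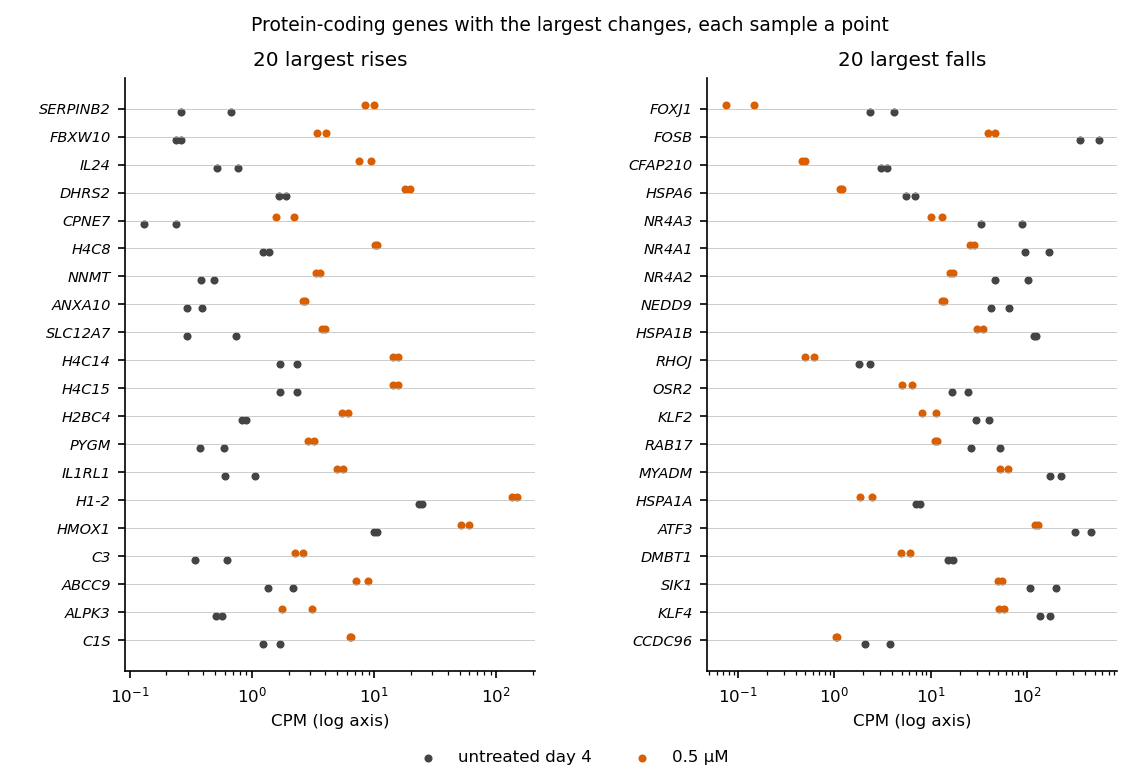
CPM (log axis) of the 20 largest rises and the 20 largest falls among protein-coding genes with a mean of at least 1 CPM. Each point is a sample, grey for untreated day 4 and orange for 0.5 μM, 2 samples each. In every row the orange pair lies wholly to a single side of the grey pair, which the choice of the genes required.

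Genes of secreted proteins and their receptors were among the largest rises. SERPINB2, which encodes an inhibitor of urokinase-type plasminogen activator (GRCh37 chromosome 18, 61538926 to 61571122, plus strand), lay at 0.262 and 0.681 CPM untreated and at 8.44 and 10.1 CPM at 0.5 μM. It was nearly silent untreated and rose 19.9-fold, a log2 fold change of 4.31 ± 0.34 (adjusted p = 4.77e-05). IL24, a cytokine of the interleukin-10 family (chromosome 1, 207070788 to 207077484), went from 0.77 and 0.515 CPM to 7.54 and 9.46 CPM. IL24 and DHRS2 had the smallest adjusted p of the rises, and IL24 rose by 3.71 ± 0.22 on the log2 scale (adjusted p = 7.6e-06), and the gene overlaps FCMR on the other strand. IL1RL1, the receptor for interleukin-33, was measured at 0.606 and 1.07 CPM untreated and at 5.55 and 5.0 CPM treated. IL1RL1 rose by a log2 fold change of 2.67 ± 0.25 (adjusted p = 0.000194), and it shares its strand and position with IL18R1. The complement genes C3 and C1S rose as well. C3, the central component of the cascade, was at 0.344 and 0.626 CPM untreated and at 2.27 and 2.63 CPM treated, and C1S, a protease that starts the classical pathway, at 1.24 and 1.69 CPM against 6.5 and 6.38 CPM. Their log2 fold changes were 2.34 ± 0.30 and 2.14 ± 0.18.

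MMP1, the interstitial collagenase, was the most abundant protease among the rises, at 22.7 and 40.6 CPM untreated and 70.1 and 69.7 CPM at 0.5 μM. The untreated samples differed from each other more than the treated ones, and the log2 fold change of 1.15 ± 0.28 (adjusted p = 0.035) was not called without untreated replicate 1 (adjusted p = 0.297) or without replicate 1 or 2 at 0.5 μM (0.124 and 0.166). Of 39 tested matrix proteases and inhibitors, 5 rose and 1 fell, against 4.36% and 1.96% of all genes tested, with a median log2 fold change of -0.28. DESeq2 called 4 rises and 6 falls in this list. The others that rose were SERPINB2, the stromelysin MMP3 (0.753 and 1.14 CPM to 3.56 and 3.33 CPM), the collagenase MMP13 (2.05 and 2.87 CPM to 6.05 and 5.92 CPM) and the gelatinase MMP9, with 0 and 1 counts untreated and 12 and 7 counts treated. TIMP4, an inhibitor of metalloproteinases, fell from 39.1 and 21.7 CPM to 14.4 and 13.5 CPM. The number that rose was 2, 4, 3 and 3 without untreated replicates 1 and 2 and 0.5 μM replicates 1 and 2. MMP9 was called in none of these cases nor by DESeq2, and TIMP4 was called in these cases only without untreated replicate 2. Of 28 cytokines and chemokines, 4 rose (IL24, IL32, CXCL11 and CSF3) and TNFSF9 fell, with a median of -0.01, and DESeq2 called 7 rises and 3 falls. IL32 went from 9.74 and 14.1 CPM to 27.7 and 26.6 CPM, 1.19 ± 0.20 on the log2 scale. CXCL11 was scarce, at 0.0982 and 0.147 CPM untreated and 0.36 and 0.515 CPM treated. The rises in this list numbered 1, 4, 1 and 2 when the same samples were left out, and neither the CXCL11 rise nor the TNFSF9 fall was called in any of these cases. Without untreated replicate 2 the 4 were IL24, IL32, CSF3 and CXCL10.

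Histone genes had the highest median among the lists of pathways and gene families. Replication-dependent histones package newly made DNA, and most of their transcripts end in a stem-loop in place of a poly(A) tail. Of 60 listed under older symbols, 30 could be matched and 22 were tested, and 12 of the 22 rose and none fell, beside 4.36% higher and 1.96% lower over all genes tested. The median log2 fold change was 1.35, beside 0.04 over all genes tested. Counts of 10 or 11 rises remained whichever of the 4 samples was left out. H1-2, a linker histone of the chromosome 6 cluster (26055968 to 26056698, minus strand), was the most abundant of them, at 23.2 and 24.7 CPM untreated and 146.6 and 134.0 CPM treated. The treated values lay 5.86-fold higher, a log2 fold change of 2.55 ± 0.20 (adjusted p = 4.77e-05). H4C8, a histone H4 gene, went from 1.39 and 1.23 CPM to 10.3 and 10.5 CPM, 2.98 ± 0.21 on the log2 scale. H4C14 and H4C15 encode the same H4 protein, and their CPM differed by at most 0.577% in any of the 12 samples, so their reads cannot be told apart. Both are among the 12 that rose and the 20 largest rises, so the same reads may be counted more than once. H4C14 lay at 1.7 and 2.34 CPM untreated and at 15.7 and 14.4 CPM treated. The H2B gene H2BC12 rose from 30.8 and 31.0 CPM to 72.1 and 79.96 CPM, by 1.30 ± 0.18 on the log2 scale (adjusted p = 0.00229). H2BC4, another H2B gene not matched to the list, was at 0.835 and 0.901 CPM untreated and 5.48 and 6.14 CPM treated (2.74 ± 0.21, adjusted p = 3.4e-05), and it overlaps HFE on the other strand.

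The other genes of the matched list that rose were H2BC21, H1-4, H2AC6, H2BC5, H2BC15, H4C16 and H2BC18, with log2 fold changes from 1.40 to 1.94. H2AC6, an H2A gene, went from 10.04 and 9.44 CPM to 30.4 and 29.2 CPM. Both treated values lay well above both untreated values. Of the histone genes outside the matched list, 3 more are given because they rose, chosen after their values were seen. HIST2H2AA3, an H2A gene, went from 6.32 and 7.82 CPM to 23.9 and 24.7 CPM. H3C14 and H3C15, which encode the same H3 protein, each went from 0.639 and 1.25 CPM to 3.35 and 3.29 CPM. The values of H3C14 and H3C15 were equal, so both may hold the same reads. H2BC11 did not follow them. It held the most counts of the list, at 732 and 633.4 CPM untreated and 596.6 and 453.8 CPM treated (log2 fold change -0.38 ± 0.23, adjusted p = 0.352). The cells also carry a histone construct for the nuclear GFP, whose gene is not given in the sources used here.

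Several enzymes and arrestin family proteins were among the named rises. HMOX1, the enzyme that degrades heme (chromosome 22, 35776354 to 35790207, plus strand), lay at 9.94 and 10.5 CPM untreated and at 60.3 and 51.8 CPM treated. The difference was a log2 fold change of 2.45 ± 0.16 (adjusted p = 1.48e-05). TXNIP, which binds and inhibits thioredoxin, went from 154.2 and 144.6 CPM to 525.7 and 473.8 CPM, 1.74 ± 0.18 on the log2 scale (adjusted p = 0.000464). ARRDC3, an arrestin-like protein of the same family as TXNIP, went from 54.4 and 47.2 CPM to 139.4 and 154.4 CPM, 1.53 ± 0.18 on the log2 scale. ARRDC3 overlaps an antisense gene, and the strand setting of the counting was not given in the sources used here. DHRS2, a short-chain dehydrogenase and reductase, was at 1.67 and 1.91 CPM untreated and at 19.7 and 17.8 CPM treated, 10.5-fold higher with a log2 fold change of 3.39 ± 0.20 (adjusted p = 7.6e-06).

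Other metabolic enzymes rose from different levels. NNMT, which methylates nicotinamide, went from 0.491 and 0.386 CPM to 3.6 and 3.35 CPM (log2 fold change 2.98 ± 0.25), and PYGM, the muscle form of glycogen phosphorylase, from 0.377 and 0.589 CPM to 2.9 and 3.22 CPM (2.67 ± 0.34). KYNU, kynureninase of the tryptophan pathway, lay at 36.6 and 48.6 CPM untreated and 81.3 and 78.8 CPM treated, with a log2 fold change of 0.91 ± 0.22 (adjusted p = 0.0341). The KYNU call did not hold without untreated replicate 1 or 2 (adjusted p = 0.302 and 0.0596) or without replicate 1 or 2 at 0.5 μM (0.13 and 0.163).

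Among membrane and calcium-binding proteins, SLC12A7, a potassium and chloride cotransporter, went from 0.295 and 0.736 CPM to 3.96 and 3.73 CPM (log2 fold change 2.92 ± 0.30, adjusted p = 0.000457). ABCC9, the sulphonylurea receptor subunit of potassium channels, went from 1.36 and 2.15 CPM to 7.09 and 8.85 CPM (2.19 ± 0.21). CPNE7 belongs to the copines, which bind phospholipids when calcium rises. Its 0.131 and 0.239 CPM untreated became 1.58 and 2.23 CPM (3.36 ± 0.50), and the call was lost without untreated replicate 1 (adjusted p = 0.0688). ANXA10, an annexin, rose from 0.393 and 0.294 CPM to 2.72 and 2.61 CPM (2.94 ± 0.32). FBXW10, an F-box protein of the kind that selects substrates for ubiquitin ligases, was at 0.262 and 0.239 CPM untreated and at 3.44 and 4.05 CPM treated, 14.8-fold higher (3.89 ± 0.31, adjusted p = 5.13e-05). ALPK3, an alpha kinase, was at 0.508 and 0.57 CPM against 1.77 and 3.13 CPM (2.18 ± 0.40), and its treated samples differed widely. Without untreated replicate 1 or 2 or 0.5 μM replicate 2 the ALPK3 rise was not called (adjusted p = 0.127, 0.0573 and 0.101).

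Of 25 ABC transporters tested, 3 rose and none fell (over all genes tested, 4.36% and 1.96%), with a median of -0.20, and DESeq2 called 3 rises and 2 falls. ABCG2, an efflux pump, went from 9.2 and 8.57 CPM to 16.7 and 15.7 CPM, the organic anion pump ABCC2 from 3.39 and 3.68 CPM to 6.06 and 9.18 CPM, and the cholesterol exporter ABCA1 from 8.09 and 7.19 CPM to 12.8 and 14.4 CPM. ABCB1, the pump best known for carrying Paclitaxel out of cells, lay at 0.164 and 0.276 CPM untreated and 0.39 and 0.662 CPM treated (log2 fold change 1.25 ± 0.39, adjusted p = 0.0835). None of the list was called without untreated replicate 1 or 2 or without 0.5 μM replicate 2, and 1 was called without 0.5 μM replicate 1.

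Tubulin genes, which encode the protein that Paclitaxel binds, rose by less than 2-fold. Of 19 tested, 7 rose and none fell (4.36% higher and 1.96% lower over all genes tested), and 16 lay above 0, with a median log2 fold change of 0.38. TUBA1A, an alpha tubulin (chromosome 12, 49578469 to 49582863, minus strand), was at 328.7 and 321.3 CPM untreated and at 661.3 and 605.1 CPM treated. Its rise was 0.96 ± 0.16 on the log2 scale (adjusted p = 0.00587), and the gene overlaps TUBA1C on the other strand. TUBB2A, a beta tubulin, went from 71.7 and 65.1 CPM to 149.0 and 118.2 CPM (0.97 ± 0.20, adjusted p = 0.016), and its near-identical neighbour TUBB2B from 35.5 and 32.6 CPM to 72.1 and 57.3 CPM. The others that rose were TUBB3, TUBA4A, TUBB6 and TUBA1B, by 0.57 to 0.90 on the log2 scale. No tubulin was called without untreated replicate 1 or 2 or without 0.5 μM replicate 1, and 2 were called without 0.5 μM replicate 2. TUBA1A then had adjusted p = 0.0848, 0.0551 and 0.0506, and TUBB2A 0.124, 0.0946 and 0.121, in the order of the 3 samples named.

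Among 45 genes of the G2 phase and mitosis, 4 rose and 1 fell (4.36% and 1.96% over all genes tested), and the median was 0.24. DESeq2 called 5 rises and 3 falls. CCNB1, cyclin B1, which drives entry into mitosis, went from 145.6 and 161.4 CPM to 290.3 and 260.6 CPM, a log2 fold change of 0.84 ± 0.20 (adjusted p = 0.0279). The kinesin KIF20A (104.5 and 104.9 CPM to 199.6 and 175.2 CPM), the mitotic kinase AURKA (89.5 and 93.5 CPM to 161.4 and 145.4 CPM) and the centromere histone CENPA (20.2 and 19.2 CPM to 31.7 and 28.4 CPM) rose, and TOP2A, the topoisomerase that untangles DNA, fell from 488 and 508.4 CPM to 355.8 and 308.8 CPM. In each of them the treated pair lay wholly beyond the untreated pair, yet none of the 45 was called once any of the 4 samples was left out. CCNB1 had adjusted p = 0.25 and 0.0879 without untreated replicates 1 and 2 and 0.136 and 0.122 without 0.5 μM replicates 1 and 2.

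Among genes of DNA replication the calls were falls. Of 45 tested, 11 fell and none rose (4.36% higher and 1.96% lower over all genes tested), and 43 lay below 0, with a median log2 fold change of -0.50. CDC6, which loads the replicative helicase, fell from 103.6 and 98.3 CPM to 59.9 and 52.6 CPM (-0.84 ± 0.15, adjusted p = 0.0073). The checkpoint mediator CLSPN went from 56.4 and 55.5 CPM to 33.0 and 32.2 CPM, and the polymerase subunit POLA2 from 16.2 and 13.7 CPM to 7.19 and 6.9 CPM. The other genes that fell were POLD3, GINS1, CDC45, GINS2, FEN1, MCM6, MCM5 and E2F1. In bulk RNA, fewer cells in S phase and less of these transcripts per cell cannot be told apart. The number called was 0 and 3 without untreated replicates 1 and 2, and 1 and 0 without 0.5 μM replicates 1 and 2, while the median lay between -0.57 and -0.45. DESeq2 called 19 falls.

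Immediate early genes, which are switched on within minutes by growth factors, stress or handling and encode mostly transcription factors, held many of the largest falls. Of 33 tested, 12 fell and 2 rose (4.36% higher and 1.96% lower over all genes tested), and the median log2 fold change was -0.52. FOSB, a partner in the AP-1 dimer (chromosome 19, 45971253 to 45978437, plus strand), was at 548.8 and 350.4 CPM untreated and at 46.5 and 39.4 CPM treated. It fell 10.5-fold, a log2 fold change of -3.39 ± 0.37 (adjusted p = 0.000632). FOS, the founding member of the family, fell from 99.8 and 86.4 CPM to 52.4 and 42.5 CPM (-0.97 ± 0.15), and JUND, a JUN family partner, from 210.2 and 175.4 CPM to 83.4 and 68.1 CPM (-1.35 ± 0.22). ATF3, a stress-induced factor, went from 454.6 and 312.1 CPM to 130.2 and 119.9 CPM (-1.62 ± 0.18, adjusted p = 0.000753).

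The 3 orphan nuclear receptors of the NR4A family fell 4.51-fold to 5.27-fold. NR4A1 was at 168.4 and 93.9 CPM untreated and at 28.1 and 25.3 CPM treated, NR4A2 at 100.9 and 46.4 CPM against 16.8 and 15.9 CPM, and NR4A3 at 88.0 and 33.4 CPM against 12.97 and 10.1 CPM. The treated pairs were close together, whereas untreated replicate 1 stood well above replicate 2. Their log2 fold changes were -2.30 ± 0.41, -2.17 ± 0.39 and -2.40 ± 0.43. The Krüppel-like factors KLF2 (40.1 and 29.5 CPM to 11.3 and 8.15 CPM) and KLF4 (173.4 and 135.0 CPM to 58.0 and 50.9 CPM) and the kinase SIK1 (199.1 and 106.1 CPM to 55.2 and 49.2 CPM) fell by 1.84, 1.50 and 1.55 on the log2 scale. The remaining falls of the list were those of EGR3 and DUSP1. All 12 genes that fell were higher in untreated replicate 1 than in replicate 2, by 1.16 to 2.63 times, while their treated replicates differed by 1.06 to 1.39 times.

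The number of immediate early genes that fell was 3 and 12 without untreated replicates 1 and 2 and 6 and 3 without 0.5 μM replicates 1 and 2. FOSB, ATF3 and KLF4 were called in each case. NR4A1, NR4A2, NR4A3 and SIK1 were not called without untreated replicate 1 (adjusted p = 0.0969, 0.107, 0.0949 and 0.219), without 0.5 μM replicate 1 (0.0597, 0.0638, 0.0508 and 0.0848) or without 0.5 μM replicate 2 (0.0971, 0.0971, 0.104 and 0.163). KLF2 and JUND were lost without untreated replicate 1 (adjusted p = 0.0876 and 0.0724) and without 0.5 μM replicate 2 (0.1 and 0.082).

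EGR1 and ARC rose, unlike the 12 genes of their list that fell. EGR1, a zinc finger factor (chromosome 5, 137801168 to 137804992, plus strand), was at 125.4 and 112.5 CPM untreated and at 324.2 and 278.5 CPM treated. Its log2 fold change was 1.34 ± 0.25 (adjusted p = 0.00986), which was not called without untreated replicate 1 or 2 (adjusted p = 0.093 and 0.0701) or 0.5 μM replicate 1 (0.0685). ARC, whose protein is best known from synapses, went from 5.03 and 5.56 CPM to 22.6 and 21.6 CPM, 2.06 ± 0.21 on the log2 scale (adjusted p = 0.000353).

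Heat shock genes showed a narrow fall. Of 33 tested, 4 fell and 1 rose (4.36% higher and 1.96% lower over all genes tested), and the median was -0.07, so the list as a whole lay near 0. HSPA6, HSPA1A and HSPA1B encode inducible HSP70 proteins, chaperones that refold damaged proteins, and DNAJB1 encodes their co-chaperone. HSPA6 (chromosome 1, 161494330 to 161496684, plus strand) lay at 5.55 and 6.83 CPM untreated and at 1.14 and 1.2 CPM treated. It fell 5.29-fold, a log2 fold change of -2.40 ± 0.22 (adjusted p = 0.000145). HSPA1B lay at 118.3 and 123.2 CPM untreated and at 34.8 and 30.0 CPM treated (-1.90 ± 0.24), and HSPA1A at 6.97 and 7.65 CPM against 2.45 and 1.86 CPM (-1.76 ± 0.26). HSPA1A and HSPA1B are near-identical. The study's methods say that only uniquely aligned reads were kept. H4C14 and H4C15 nonetheless lay within 0.577% of each other, so how reads of such copies were counted is unclear. The separate levels of HSPA1A and HSPA1B are therefore uncertain. DNAJB1 fell from 397.8 and 381.8 CPM to 193.2 and 164.2 CPM (-1.13 ± 0.14, adjusted p = 0.0015), and DNAJA4 rose from 0.229 and 0.294 CPM to 0.826 and 1.03 CPM. The DNAJA4 rise was not called without untreated replicate 1. The untreated replicates of the 4 genes that fell were close to each other, and 4 falls were called whichever of the 4 samples was left out.

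Promoters of 4 genes described above are shown because they hold the letters of a motif known from heat shock, serum or AP-1 factors and because the genes moved in different directions. They are the 250 bases before the start of the gene from RefSeq (GRCh38.p14), all on the plus strand, at chr1:161524290-161524539 for HSPA6, chr6:31827488-31827737 for HSPA1B, chr5:138465229-138465478 for EGR1 and chr18:63887455-63887704 for SERPINB2. Capitals mark GAANNTTC, the core of the heat shock element, CATATTAGG, the CArG box of FOS without its first base, and TGANTCA, the AP-1 site, on either strand.
HSPA6: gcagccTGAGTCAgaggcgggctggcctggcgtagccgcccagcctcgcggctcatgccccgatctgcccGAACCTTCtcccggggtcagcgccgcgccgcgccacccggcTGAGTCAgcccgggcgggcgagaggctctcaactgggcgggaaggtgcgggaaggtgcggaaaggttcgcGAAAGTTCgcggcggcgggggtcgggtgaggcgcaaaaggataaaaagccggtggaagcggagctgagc
HSPA1B: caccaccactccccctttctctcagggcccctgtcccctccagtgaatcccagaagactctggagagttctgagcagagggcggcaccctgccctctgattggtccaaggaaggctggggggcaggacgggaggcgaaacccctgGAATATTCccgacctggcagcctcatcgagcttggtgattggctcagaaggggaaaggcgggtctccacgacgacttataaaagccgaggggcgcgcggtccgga
EGR1: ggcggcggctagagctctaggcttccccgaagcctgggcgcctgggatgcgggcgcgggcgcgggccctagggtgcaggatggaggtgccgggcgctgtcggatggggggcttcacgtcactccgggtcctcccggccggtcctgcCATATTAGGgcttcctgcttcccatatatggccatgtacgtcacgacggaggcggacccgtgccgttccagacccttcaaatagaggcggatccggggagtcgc
SERPINB2: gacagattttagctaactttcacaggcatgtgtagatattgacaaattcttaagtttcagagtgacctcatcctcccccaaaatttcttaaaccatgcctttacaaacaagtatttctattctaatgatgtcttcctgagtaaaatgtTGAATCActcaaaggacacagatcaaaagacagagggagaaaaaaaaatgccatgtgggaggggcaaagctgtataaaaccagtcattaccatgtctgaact
HSPA6, which fell, holds the heat shock core beginning 180 and 69 bases before the start and AP-1 letters at 244 and 139. HSPA1B, which fell, holds the heat shock core at 105. EGR1, which rose, holds the CArG letters at 104, and SERPINB2, which rose, the AP-1 letters at 102.

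Promoters could be matched by symbol for 13291 tested genes, 548 of those that rose and 348 of those that fell, each from 250 bases before to 50 after the start. AP-1 letters (TGANTCA) were in 5.5% of all tested, 10% of those that rose and 5.17% of those that fell. The E2F letters TTTCCCGC or TTTGGCGC were in 3.27%, 1.46% and 6.32%, in the same order. Heat shock cores (GAANNTTC) were in 4.96%, 6.75% and 5.75%, and interferon response cores (TTTCNNTTT) in 7.64%, 10% and 8.05%. The cyclic AMP element TGACGTCA was in 2.97%, 2.55% and 3.74%, and CATATTAGG in 0.0752%, 0.365% and 0.287%. The motifs were searched on both strands and separately, so a stretch can count for more than 1 of them. Among all 27305 promoters of the table the shares were 7.76% for AP-1, 2.31% for E2F, 6.87% for the heat shock core, 10.6% for the interferon core, 1.98% for the cyclic AMP element and 0.0732% for CATATTAGG. These shares describe letters in a window and were not tested.

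FOXJ1, the transcription factor that switches on motile cilia (chromosome 17, 74132414 to 74137326, minus strand), had the largest fall of the 62 named genes. It held 253 and 126 counts untreated and 5 and 8 counts treated, or 4.14 and 2.32 CPM against 0.0751 and 0.147 CPM. The log2 fold change was -4.88 ± 0.45 (adjusted p = 0.000194), and the gene overlaps RNF157-AS1 on the other strand. CFAP210, a protein of the microtubules of motile cilia, fell from 3.54 and 3.07 CPM to 0.465 and 0.497 CPM (-2.78 ± 0.29, adjusted p = 0.00046). CCDC96, a ciliary coiled-coil protein, went from 3.78 and 2.1 CPM to 1.07 and 1.05 CPM (-1.48 ± 0.35), and it overlaps TADA2B on the other strand. The CCDC96 fall was not called without untreated replicate 1 (adjusted p = 0.305) or without 0.5 μM replicate 1 or 2 (0.127 and 0.192), whereas FOXJ1 and CFAP210 were called in each case. No list of cilia genes was examined, and other genes known from motile cilia were called in both directions. The 3 given here were chosen after their values were seen. CFAP126 fell from 7.06 and 5.7 CPM to 3.63 and 3.88 CPM. CFAP141 rose from 0.0327 and 0.0368 CPM to 0.375 and 0.589 CPM, and DNALI1, a dynein light intermediate chain, from 0.18 and 0.147 CPM to 0.51 and 0.865 CPM.

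The other large falls were of genes with different roles. NEDD9, a scaffold at focal adhesions, fell from 65.0 and 41.6 CPM to 13.8 and 13.2 CPM (log2 fold change -1.98 ± 0.22, adjusted p = 0.000717). MYADM, a membrane protein of lipid rafts, went from 221.8 and 172.0 CPM to 63.3 and 52.3 CPM (-1.77 ± 0.30), and RHOJ, a small GTPase, from 2.33 and 1.8 CPM to 0.615 and 0.497 CPM (-1.88 ± 0.34). RAB17, a GTPase of epithelial membrane traffic, was at 51.6 and 26.4 CPM untreated, a wide gap, and at 11.7 and 11.2 CPM treated (-1.77 ± 0.26). MYADM was not called without untreated replicate 1 (adjusted p = 0.0724) or 0.5 μM replicate 2 (0.0842), nor RHOJ without untreated replicate 1 (0.104) or 0.5 μM replicate 1 or 2 (0.0539 and 0.107). ENPP1, an enzyme that makes pyrophosphate outside the cell, fell from 406.1 and 318.7 CPM to 185.1 and 145.5 CPM (-1.13 ± 0.18), and lost its call without untreated replicate 1 (adjusted p = 0.0737) or 0.5 μM replicate 2 (0.0781). DMBT1, a secreted scavenger receptor protein, fell from 17.1 and 15.1 CPM to 6.06 and 4.91 CPM (-1.55 ± 0.22), and the zinc finger factor OSR2 from 24.3 and 16.8 CPM to 6.3 and 5.04 CPM (-1.85 ± 0.22).

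Cholesterol and fatty acid synthesis had the lowest median of the lists. These enzymes build sterols from acetyl-CoA and are controlled together by the SREBP factors. Of 32 tested, 11 fell and none rose (4.36% higher and 1.96% lower over all genes tested), 31 lay below 0 and the median log2 fold change was -0.73. HMGCS1, which makes HMG-CoA, was at 405.4 and 429.8 CPM untreated and at 178.4 and 180.9 CPM treated. Both pairs were tight, and the log2 fold change was -1.22 ± 0.14 (adjusted p = 0.000667). SQLE, the squalene oxidising step, fell from 52.2 and 45.5 CPM to 28.3 and 26.6 CPM, ACSS2, which makes acetyl-CoA from acetate, from 72.7 and 59.6 CPM to 36.98 and 33.5 CPM, and CYP51A1, a demethylase of lanosterol, from 37.4 and 36.2 CPM to 21.5 and 19.6 CPM. STARD4, INSIG1, MSMO1, TM7SF2, MVD, ELOVL6 and ACAT2 fell as well. The count was 1 and 8 without untreated replicates 1 and 2 and 6 and 1 without 0.5 μM replicates 1 and 2, and the median then lay between -0.87 and -0.56. DESeq2 called 23 falls.

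**Figure D3:**
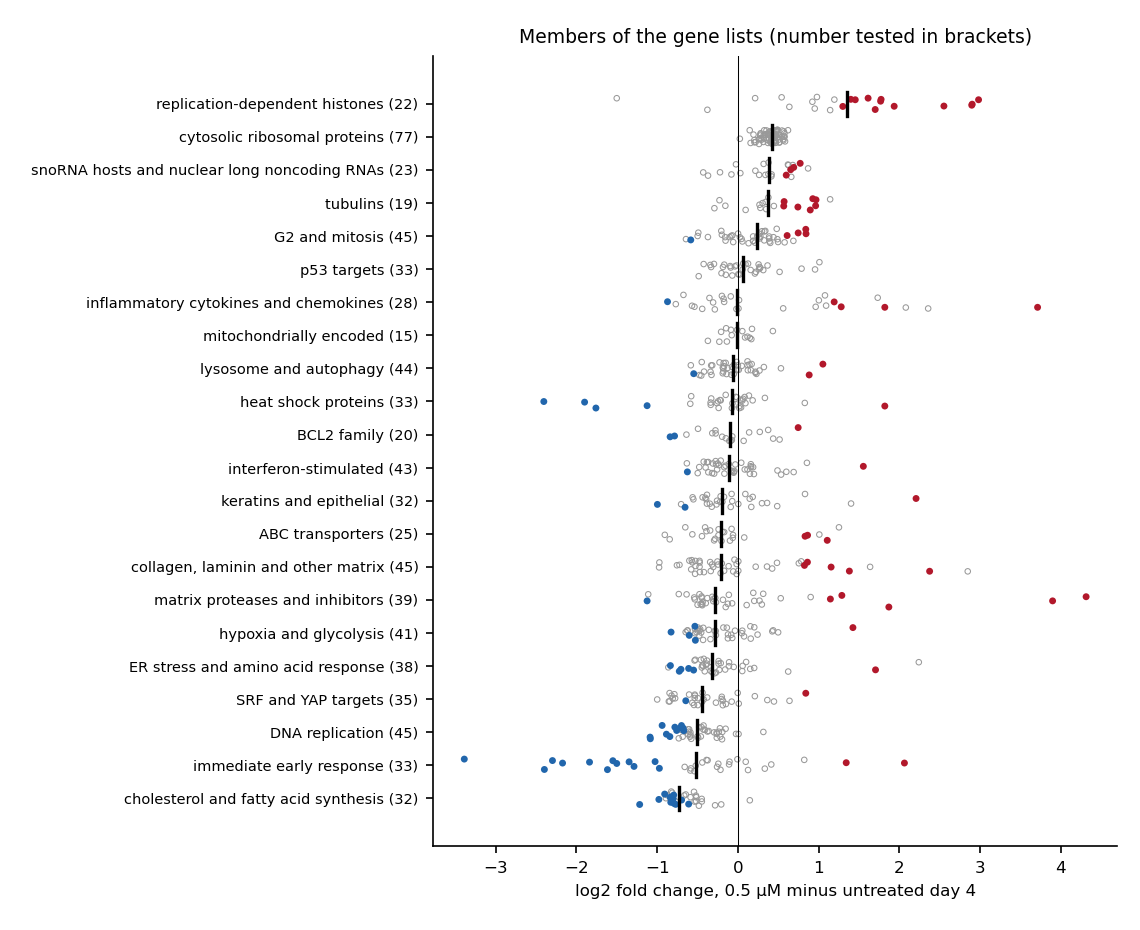
Log2 fold change of 0.5 μM against untreated day 4 for each tested member of 22 gene lists, which are sorted by their median (black bar). Filled red points rose, filled blue points fell and open points were not called. Histones lie farthest to the right (median 1.35), and cholesterol and fatty acid synthesis farthest to the left (median -0.73).

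In the unfolded protein and amino acid response, 5 of 38 genes fell and DDIT3 rose (4.36% higher and 1.96% lower over all genes tested), with a median of -0.33. DDIT3, the factor CHOP, went from 9.48 and 14.9 CPM to 38.1 and 41.1 CPM (log2 fold change 1.70 ± 0.26), whereas PSAT1 of serine synthesis went from 86.9 and 82.0 CPM to 53.3 and 48.7 CPM. VLDLR, PDIA4, SHMT2 and EDEM1 also fell. Among 41 genes of hypoxia and glycolysis, 4 fell (ANGPTL4, ALDOC, EGLN1 and CA12) and the secreted hormone STC2 rose from 1.46 and 1.45 CPM to 3.83 and 3.99 CPM, to be set beside the same shares. In both lists no fall was called without untreated replicate 1 or 0.5 μM replicate 2, and without untreated replicate 2 and 0.5 μM replicate 1 the falls were 2 and 2 in the first list and 1 and 0 in the second. The DDIT3 rise was not called without untreated replicate 1. DESeq2 called 1 rise and 9 falls in the first list and 3 rises and 12 falls in the second. In the BCL2 family, which controls apoptosis, 2 of 20 fell and 1 rose, beside 1.96% and 4.36% of all genes tested. The survival gene MCL1 went from 736 and 709.6 CPM to 417.9 and 421 CPM (-0.79 ± 0.15) and BCL2L1 from 355.5 and 269.9 CPM to 190.8 and 158.6 CPM (-0.84 ± 0.19), whereas the pro-apoptotic BMF went from 10.3 and 9.48 CPM to 15.9 and 17.2 CPM (0.75 ± 0.17). In this family 1 fall was called without untreated replicate 2, and no gene without each of the other 3 samples in turn.

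In several lists few or no genes were called. None of 33 targets of p53, a factor that is mutated in this line, was called (4 had an unadjusted p under 0.05), and DESeq2 called none either. CDKN1A, the best known target, was at 76.6 and 69.8 CPM untreated and 54.9 and 49.7 CPM treated (adjusted p = 0.116). Of 43 interferon-stimulated genes, IFI27 rose and OASL fell, near the shares over all genes tested (4.36% and 1.96%), and neither was called without untreated replicate 1 or without either sample at 0.5 μM. None of 15 mitochondrially encoded genes was called (1 had an unadjusted p under 0.05, and DESeq2 called 0). All 77 cytosolic ribosomal protein genes lay above 0, with a median of 0.42 and log2 fold changes from 0.02 to 0.62, but none was called (4 had an unadjusted p under 0.05, and DESeq2 called 1). Their summed level, in CPM not scaled by TMM, was 48480 and 61260 untreated and 72180 and 77930 treated.

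In the remaining lists, collagens and other matrix genes had 5 rises and no fall of 45 tested (4.36% higher and 1.96% lower over all genes tested) and a median of -0.21, and DESeq2 called 6 rises and 3 falls. The rises numbered 1, 1, 1 and 2 without untreated replicates 1 and 2 and 0.5 μM replicates 1 and 2. COL3A1 was called in each of these cases, and COL7A1 and COL5A2 in none. COL7A1, the anchoring fibril collagen, rose from 3.44 and 5.45 CPM to 8.93 and 14.2 CPM and COL5A2 from 2.21 and 1.69 CPM to 3.39 and 3.72 CPM. Among 32 keratin and epithelial genes KRT14 rose, and the junction genes CLDN1 and TJP3 fell, beside 4.36% and 1.96% of all genes tested. KRT14 was not called without untreated replicate 1, and neither CLDN1 nor TJP3 was called without untreated replicate 1 or without either sample at 0.5 μM. Among 35 SRF and YAP targets the calls were near the shares over all genes tested (4.36% and 1.96%). GADD45A rose and VCL, vinculin, fell from 551 and 500.3 CPM to 315.9 and 356.0 CPM, with a median of -0.44, and DESeq2 called 1 rise and 7 falls. The VCL fall was lost whichever of the 4 samples was left out, and the GADD45A rise was called without 0.5 μM replicate 2 but not without each of the other 3. Lysosome and autophagy genes had 2 rises (GPNMB and CTSS) and 1 fall (WIPI1) of 44 tested, shares near those over all genes tested (4.36% and 1.96%), of which 1 rise was called without untreated replicate 1 and none without each of the others. Of 23 host genes of small nucleolar RNAs and nuclear long noncoding RNAs, SNHG1, SNHG15, SNHG17 and EPB41L4A-AS1 rose, beside 4.36% of all genes tested and 5.46% of long noncoding RNAs, and none did when any of the 4 samples was left out.

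Among genes of other biotypes with a mean of at least 1 CPM, 79 with a symbol rose and 13 fell. How many such genes were tested is not given here. Over all genes tested 4.36% rose and 1.96% fell, and among those with a mean of 1 to 8 CPM 6.81% rose and 1.83% fell. The largest rises were those of the pseudogene IFITM3P2 (0.262 and 0.35 CPM to 1.91 and 1.71 CPM), SRP14-DT, HIF1A-AS3, CLCA3P and UBAC2-AS1, with log2 fold changes from 1.70 to 2.57. The largest falls, CELSR1P1, SMC2-DT, CYP51A1P2, KRT8P5 and LINC02701, were small, from -1.04 to -0.88. CELSR1P1, SMC2-DT, KRT8P5 and LINC02701 were called in none of the fits that left out 1 of the 4 samples, and CYP51A1P2 only in the fit without untreated replicate 2. KRT8P5 was also not called in the fit on the 4 samples alone (adjusted p = 0.059). HIF1A-AS3 overlaps HIF1A on the other strand and was not called without untreated replicate 1 or 0.5 μM replicate 2 (adjusted p = 0.166 and 0.107). CYP51A1P2 and KRT8P5 are copies of CYP51A1 and KRT8, so their reads are uncertain.

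Markers of other cell types were examined because some low-level rises carry such names. Of 15 leukocyte markers 8 were tested, and 4 rose and none fell. Over all genes tested 4.36% rose and 1.96% fell, and 6.9% rose among those with a mean under 1 CPM. FCGR3A and MS4A1 were at 0 in all 4 samples and PTPRC lay at or under 0.27 CPM. Sums of a list use unscaled CPM. This list summed to 3.02 and 3.21 CPM untreated and 7.22 and 8.15 CPM treated. ITGAM, an integrin of myeloid cells, went from 1 and 5 counts to 88 and 82 counts, CD14 from 0.508 and 0.515 CPM to 1.2 and 1.62 CPM, and CSF1R from 0.606 and 0.478 CPM to 1.5 and 1.55 CPM. CD163 was at 0 in both untreated samples and had 18 and 11 counts treated. Of 12 fibroblast markers, POSTN was at 0 throughout and COL1A2 at 0 in all but untreated replicate 1, and the list summed to 17.2 and 13.6 CPM untreated and 16.6 and 18.1 CPM treated. Of the 8 fibroblast markers tested, 3 rose and none fell, beside 4.36% higher and 1.96% lower over all genes tested. PDGFRA, COL3A1 and FAP rose from at most 0.344 CPM, FAP from 0 counts in both untreated samples to 9 and 5. Of the 8, 6 lay above 0 and 2 below. In unscaled CPM, PDGFRB went from 9.03 and 5.05 to 5.05 and 4.27, and ACTA2 from 1.44 and 1.39 to 1.35 and 1.2. Of 9 endothelial markers 6 were tested, and 1 rose and none fell, beside 4.36% higher and 1.96% lower over all genes tested. KDR rose from 0.802 and 0.607 CPM to 1.47 and 1.69 CPM. The list summed to 90.5 and 76.2 CPM untreated and 72.3 and 63.5 CPM treated. ESAM alone held 88.5 and 74.8 CPM of these untreated sums and 69.4 and 59.97 CPM of the treated ones, and the other 8 members summed to 1.97 and 1.32 CPM untreated and 2.91 and 3.53 CPM treated. The leukocyte rises numbered 1, 1, 2 and 1, and the fibroblast rises 1, 2, 2 and 2, without untreated replicates 1 and 2 and 0.5 μM replicates 1 and 2, and KDR was not called in any of these cases. The part of other cell types in the rises was not tested.

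The highest dose was compared directly with lower doses, to see where it differed from them. The comparisons share the 0.5 μM samples. Against 0.05 μM, 0 genes were called (0.0%), while 649 had an unadjusted p under 0.05 and DESeq2 called 4. The count was 8 and 7 without replicates 1 and 2 of untreated day 2. Against 0.0005 μM, 104 genes were called (0.412%), 19 higher and 85 lower at 0.5 μM, and 12 of the 62 named genes were among them. Without replicates 1 and 2 of untreated day 2 that count was 1314 and 1412, without those at 0.0005 μM 20 and 10, without those at 0.005 μM 55 and 55, and without those at 0.5 μM 7 and 6.

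Lower at 0.5 than at 0.0005 μM were FOXJ1, HSPA6, FOSB, HSPA1B, HSPA1A and ATF3, and these also lay below untreated. Leaving out samples in turn was added here after the data were seen. Only HSPA6 was called whichever of the 4 samples at these doses was left out (adjusted p = 0.00295 to 0.0206), and FOXJ1 was called without either sample at 0.0005 μM but not without replicate 1 or 2 at 0.5 μM (adjusted p = 0.11 and 0.0603). The other 10 were called in none of the 4 cases, and all 12 kept their sign. HSPA6 held 8.5 and 6.46 CPM at 0.0005 μM, against 1.14 and 1.2 CPM at 0.5 μM, a log2 difference of -2.68 ± 0.21 (adjusted p = 0.000307). MMP1 and SERPINB2 lay above untreated at 0.5 μM and still higher at 0.0005 μM. MMP1 was at 285.3 and 305.2 CPM at 0.0005 μM and at 70.1 and 69.7 CPM at 0.5 μM, a log2 difference of -2.08 ± 0.29 (adjusted p = 0.00883). SERPINB2 was at 28.4 and 28.2 CPM at the lowest dose and at 8.44 and 10.1 CPM at the highest (-1.61 ± 0.26). Higher at 0.5 than at 0.0005 μM were FBXW10, H2BC4, H1-2 and HMOX1. HMOX1 lay at 28.5 and 27.6 CPM at the lowest dose, 48.7 and 47.8 CPM at 0.05 μM and 60.3 and 51.8 CPM at 0.5 μM, a log2 difference between the ends of 0.999 ± 0.15 (adjusted p = 0.0154).

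**Figure D4:**
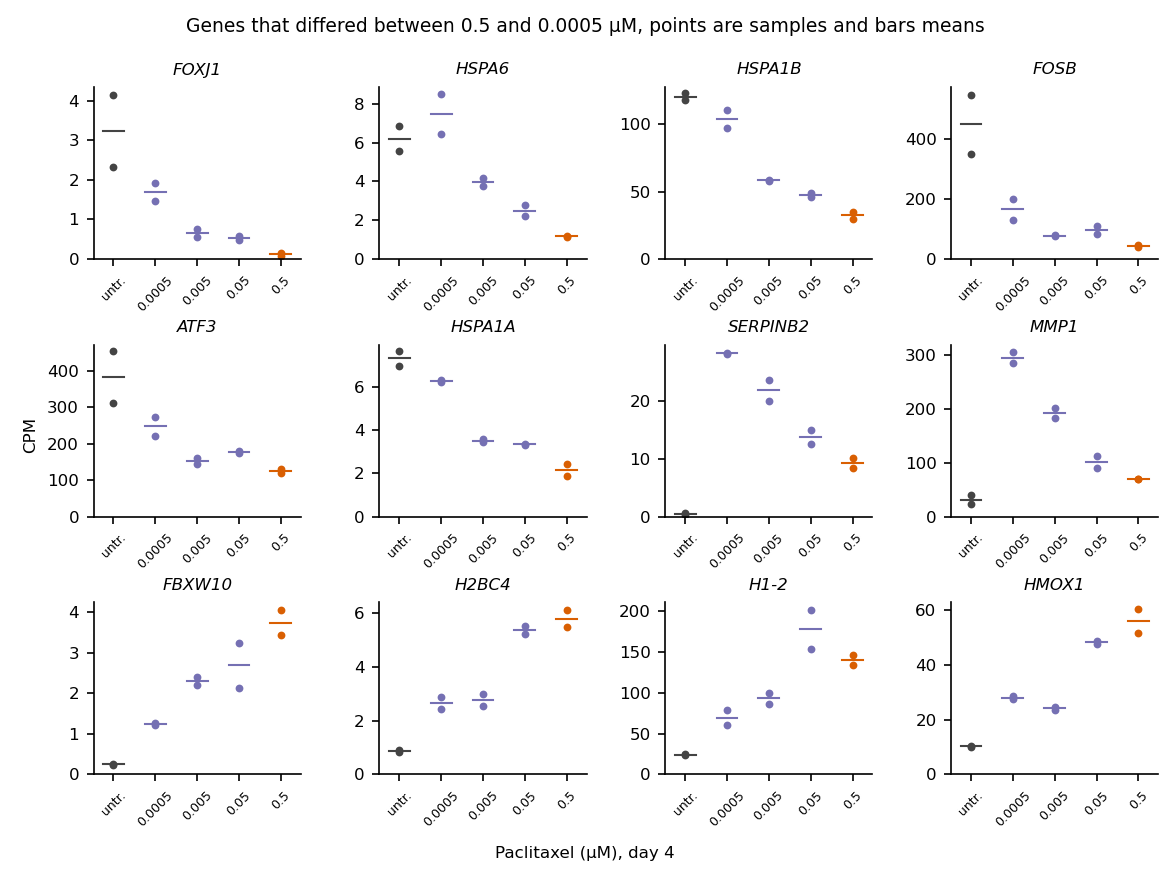
CPM (linear axis from 0) of the 12 named genes that differed between 0.5 and 0.0005 μM, on day 4. Points are samples, 2 per condition, and bars are means, with untreated in grey, 0.5 μM in orange and the lower doses in purple. FOXJ1, FOSB, ATF3 and the heat shock genes are lowest at 0.5 μM, SERPINB2 and MMP1 are highest at 0.0005 μM, and FBXW10, H2BC4 and HMOX1 are highest at 0.5 μM.

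Over all 62 named genes, the mean of the 5 conditions of day 4 was lowest at 0.5 μM for 22 of the 28 that fell. Among the 34 that rose, it was highest at 0.5 μM for 11, at 0.05 μM for 13, at 0.005 μM for 1 and at 0.0005 μM for 9. IL24 and C1S lay near the same level at every dose. IL24 was at 10.3 and 10.4 CPM at 0.0005 μM and 9.62 and 8.5 CPM at 0.05 μM, beside 7.54 and 9.46 CPM at 0.5 μM. These means share their samples with the choice of the genes and are given as a description.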

How the data were processed

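RNA was measured in 12 samples of MDA-MB-231 cells, 2 for each of 6 conditions. The deposited values are raw counts per gene. By the labels and the study's methods, the authors trimmed reads with Trimmomatic 0.39, checked them with FastQC 0.11.9, aligned them to hg19 with STAR 2.7.5 and counted uniquely aligned reads in exons with Rsubread before the count table was deposited. The strand setting and the selection of RNA are not given in the sources used here, so reads of overlapping genes on opposite strands could not be told apart. Totals ranged from 38380629 to 79169121 counts.

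Genes were kept by edgeR's filterByExpr over the 6 conditions, scaled by TMM and tested with robust quasi-likelihood fits (edgeR 4.0.16, limma 3.58.1, R 4.3.3) on all 12 samples, with p-values adjusted by Benjamini-Hochberg over the 25249 genes and called under 0.05. Standard errors (SE) were derived from each gene's log2 fold change and its F statistic. Named genes had both treated samples beyond both untreated ones, and were the 20 largest rises and falls among called protein-coding genes with a mean of at least 1 CPM, the 10 largest of each at 50 CPM or more, and the 5 largest of each among other biotypes with a symbol. The members and lists were chosen with earlier results of these data known. Gene positions are from GENCODE release 44 on GRCh37. The script was tested on simulated counts. Alternatives were DESeq2 1.42.0, RLE scaling, other filters, a replicate block, fits on fewer samples, and each of the 12 samples left out in turn.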

Additional observations from a re-analysis of the deposited data

Results flagged for a closer look

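In the comparison of 0.5 with 0.0005 μM by edgeR's quasi-likelihood test (2 samples each), 12 named genes differed between the doses. Log2 differences, 0.5 minus 0.0005 μM, were negative for FOXJ1 (-3.95 ± 0.46, adjusted p = 0.00335), HSPA6 (-2.68 ± 0.21, 0.000307), HSPA1B (-1.68 ± 0.23, 0.00883), HSPA1A (-1.53 ± 0.26, 0.0245), FOSB (-1.95 ± 0.35, 0.0401) and ATF3 (-0.98 ± 0.18, 0.0422). MMP1 (-2.08 ± 0.29, adjusted p = 0.00883) and SERPINB2 (-1.61 ± 0.26, 0.0206) were lower at 0.5 than at 0.0005 μM although both rose against untreated. FBXW10 (1.59 ± 0.25, adjusted p = 0.0187), H2BC4 (1.13 ± 0.19, 0.0218), H1-2 (1.012 ± 0.19, 0.0456) and HMOX1 (0.999 ± 0.15, 0.0154) were higher at 0.5 μM. When each of the 4 samples at these doses was left out in turn, an alternative added after the data were seen, HSPA6 stayed called, FOXJ1 was lost without either sample at 0.5 μM, and the other 10 were called in no case. All 12 kept their sign.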

How the results depend on the processing

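Against untreated day 4, the 1596 calls became 2807 with no filter beyond 1 count, 820 at a mean of at least 1 CPM, 2578 with only the 4 samples compared and 5033 with only the 10 samples of day 4. Leaving out each sample in turn gave 129 to 5046. The split of 1101 higher and 495 lower became 1283 and 1295 with the 4 samples, 2322 and 2711 with the 10, and 1237 and 1080 by DESeq2. Against 0.05 μM, DESeq2 called 4, no filter 15, the 4 samples 10 and the 10 samples 7, and leaving out each sample in turn gave 0 to 8. Against 0.0005 μM the 104 calls became 600 by DESeq2, 895 with no filter, 1662 with the 4 samples and 1443 with the 10, and 6 to 1412 leaving out each sample in turn. The 62 named genes were followed under DESeq2, RLE scaling, the block, the 4 samples alone and without each of these 4 in turn. None changed direction, and 38 were called under all of them. The causes were not tested. Genes with few counts, such as MMP9, are limited by depth.

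With the replicate number as a block, 1806 genes were called against untreated day 4, 124 against 0.0005 μM and 0 against 0.05 μM. Replicate 1 deviations correlated at 0.637 between the conditions compared but from -0.599 to 0.697 over all pairs of conditions, so the numbers were not taken as pairs, and whether these 4 samples are paired is not known.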
